A study of Mus musculus with 12 samples.

Results

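The genes described here are 10 transcripts of the MEK-ERK (mitogen-activated protein kinase) pathway in mouse embryonic stem (ES) cells: the feedback inhibitors Spry2, Spry4, Spred1, Spred2, Dusp4 and Dusp6, the ETS-family transcription factors Etv4 and Etv5, and the immediate early genes Egr1 and Fos. They were chosen by name, as rows of the deposited tables whose Ensembl identifier carries these symbols in GENCODE mouse release M21, and they are 10 of the 52550 genes listed in each of the 12 libraries. All 10 passed the filter on low counts that left 16987 genes for testing.

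Polyadenylated RNA was sequenced in 6 groups of 2 libraries each, and every group received the cytokine LIF at 1000 U/ml. Unmodified ES cells were grown in serum/LIF, unmodified ES cells were grown in 2iL, and GSK3 knockout ES cells were grown in serum/LIF. Each of these was exposed for 60 h either to 100 nM JQ1, which displaces BET bromodomain proteins from acetylated chromatin, or to its solvent DMSO. The 2iL medium is serum-free, with N2 and B27 supplements, and holds the MEK inhibitor PD0325901 at 1 µM together with a second agent that the protocol leaves unnamed and that the design text describes as a GSK3 inhibitor. Serum/LIF cultures were maintained on mitomycin-treated mouse fibroblasts and moved to gelatin for the experiment, while 2iL cultures stood on gelatin, so medium, serum, inhibitors and feeder history all differ between 2iL and serum/LIF. Which GSK3 gene was targeted, how the knockout was made and how many clones it stands for are not given in the sources used here. Nor do the labels say that the 2 libraries of a group came from separate cultures, so the p-values reflect library-to-library spread only, and that spread may be technical.

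Growth factors such as FGF4 act through receptor tyrosine kinases, Ras and Raf on the kinase MEK, which phosphorylates ERK. Active ERK induces the immediate early genes within minutes, and then a set of genes that act back on the pathway: Sprouty and SPRED proteins restrain Ras and Raf, and dual-specificity phosphatases such as DUSP4 and DUSP6 remove phosphate from ERK. In mouse ES cells ERK signalling moves cells towards differentiation, and blocking MEK is part of the 2i medium that holds them in the naive state. The levels of these transcripts are therefore commonly read as a record of ERK output.

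Promoter sequence was available from RefSeq (GRCm38.p6) for 6 of the 10 genes in 7 windows, each running from 250 bases before to 50 bases after an annotated start. The windows of 4 genes are shown here because these genes moved in opposite directions in 2iL, as described below: Fos and Dusp6 fell, and Etv5 and Spred2 rose. For Etv5 only the window of the second start is printed, and that of the first start, which held none of the motif matches given below, is not. The windows of Spry2 and Spred1, which also fell, are not printed either. They are printed 5′ to 3′ on the strand of the gene, in lower case. Exact matches in either orientation to the ETS string GGAAGT or to the CRE core TGACGT are in capitals.
Fos, chr12:85473640-85473939, plus strand: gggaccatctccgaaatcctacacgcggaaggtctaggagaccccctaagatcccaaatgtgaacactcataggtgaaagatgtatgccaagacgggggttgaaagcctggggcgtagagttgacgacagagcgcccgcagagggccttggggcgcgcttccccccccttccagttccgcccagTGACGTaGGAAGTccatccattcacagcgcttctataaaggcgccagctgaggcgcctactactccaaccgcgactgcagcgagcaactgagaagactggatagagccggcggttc
Dusp6, chr10:99262981-99263280, plus strand: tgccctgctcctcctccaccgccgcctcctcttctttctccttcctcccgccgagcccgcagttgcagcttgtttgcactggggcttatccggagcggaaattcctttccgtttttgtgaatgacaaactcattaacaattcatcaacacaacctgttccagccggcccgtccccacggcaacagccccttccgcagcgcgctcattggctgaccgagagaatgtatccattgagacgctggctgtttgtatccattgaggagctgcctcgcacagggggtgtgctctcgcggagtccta
Etv5, second start, chr16:22438319-22438618, minus strand: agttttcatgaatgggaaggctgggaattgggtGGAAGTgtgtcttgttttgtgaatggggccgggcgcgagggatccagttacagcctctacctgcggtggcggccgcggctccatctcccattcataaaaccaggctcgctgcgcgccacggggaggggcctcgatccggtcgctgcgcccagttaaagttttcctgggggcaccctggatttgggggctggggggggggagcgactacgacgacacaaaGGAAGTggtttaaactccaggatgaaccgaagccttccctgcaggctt
Spred2, chr11:19924192-19924491, plus strand: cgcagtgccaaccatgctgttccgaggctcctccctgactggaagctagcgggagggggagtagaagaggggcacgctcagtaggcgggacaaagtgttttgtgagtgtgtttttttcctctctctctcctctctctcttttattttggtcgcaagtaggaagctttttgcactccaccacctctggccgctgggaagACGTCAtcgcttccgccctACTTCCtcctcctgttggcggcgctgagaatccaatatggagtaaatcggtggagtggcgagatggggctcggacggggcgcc
GGAAGT is 1 form of the DNA motif that Etv4, Etv5 and their relatives bind, and shorter or variant forms were not searched. It stood at -59 to -54 from the start of Fos, directly beside a CRE core at -66 to -61. It stood at -217 to -212 and at 3 to 8 in the second Etv5 window and, on the reverse strand, at -33 to -28 in Spred2, which also held a CRE core on the reverse strand at -52 to -47. No exact match to GGAAGT or TGACGT was found in the windows of Dusp6, Spry2, Spred1 or the first start of Etv5. This does not exclude other forms of the ETS motif there. Across all 32851 promoter windows of this length, 23.77% held GGAAGT and 7.51% the CRE core on either strand. The full CRE (TGACGTCA, in 1.79% of windows), the AP-1 site (TGANTCA, 7.81%), the TCF site (CTTTGAT, 3.73%) and the CArG box (1.63%) matched none of the 7 windows. The CRE core lies inside the full CRE and can overlap the AP-1 site. These matches are descriptions of letters in 1 window per start.

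Library totals ran from 17869865 to 48723436 expected counts, and the deepest library, serum/LIF with DMSO replicate 1, held 48723436 against at most 29882439 in any other. Gsk3a stood at 71.0 ± 8.23 CPM (counts scaled to library size by TMM; mean ± SD, n = 2) in unmodified serum/LIF cells with DMSO and at 24.1 ± 0.973 CPM in the knockout. Gsk3b stood at 73.5 ± 1.80 and 46.9 ± 6.13 CPM, so both GSK3 genes were lower in the libraries labelled GSK3 knockout without being at 0. The summed level of 8 ES cell markers ran from 1530 to 4490 CPM over the 12 libraries, and none of the 8 was at 0 in any library. The summed level of 12 fibroblast markers was 902 and 879 CPM in serum/LIF with DMSO, 385 and 379 CPM with JQ1, 11.5 to 16.8 CPM in 2iL with DMSO, 6.19 to 8.06 CPM in 2iL with JQ1, 339 and 493 CPM in the knockout with DMSO and 168 and 240 CPM in the knockout with JQ1. These sums differ between most of the groups compared below, and in 2iL 4 to 6 of the 12 markers were at 0. In bulk RNA, fewer cells of a type and less RNA per cell cannot be told apart. No exon of another annotated gene overlaps an exon of any of the 10 genes, so the unstated strand setting of the counting does not bear on them through annotated neighbours.

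Compared per length, in the authors' TPM (transcript abundance scaled for depth and transcript length), Etv5 led the 10 genes in serum/LIF with DMSO at 93.5 ± 9.82 TPM (SD, n = 2). It was followed by the phosphatases Dusp4 at 50.0 ± 20.7 TPM and Dusp6 at 41.5 ± 13.4 TPM, whose libraries overlapped, and by Spry2 at 27.5 and Etv4 at 27.0 TPM, which also overlapped. Spred1 (22.9 TPM), Spred2 (17.6 TPM), Spry4 (11.6 TPM), Egr1 (7.01 TPM) and Fos (3.33 TPM) came below, each pair of neighbours with no overlap between libraries. The order was different in 2iL with DMSO, where Etv5 (163.6 ± 10.2 TPM), Etv4 (54.0 ± 11.5 TPM) and Spred2 (25.8 ± 3.59 TPM) stood highest, and Dusp4 (0.49 TPM), Fos (0.40 TPM), Egr1 (0.19 TPM) and Spry4 (0.17 TPM) lowest. In the knockout with DMSO Etv4 came first at 143.2 ± 3.57 TPM, ahead of Etv5 at 105.3 ± 3.22 TPM, and Spry4 (58.4 TPM) and Spry2 (58.2 TPM) overlapped in the next 2 places. Fos was last there at 1.22 ± 0.134 TPM. The order in 2iL was the same with JQ1, while in serum/LIF with JQ1 Egr1 stood in the sixth place at 26.9 ± 0.148 TPM, after the ninth with DMSO.

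**Figure D1:**
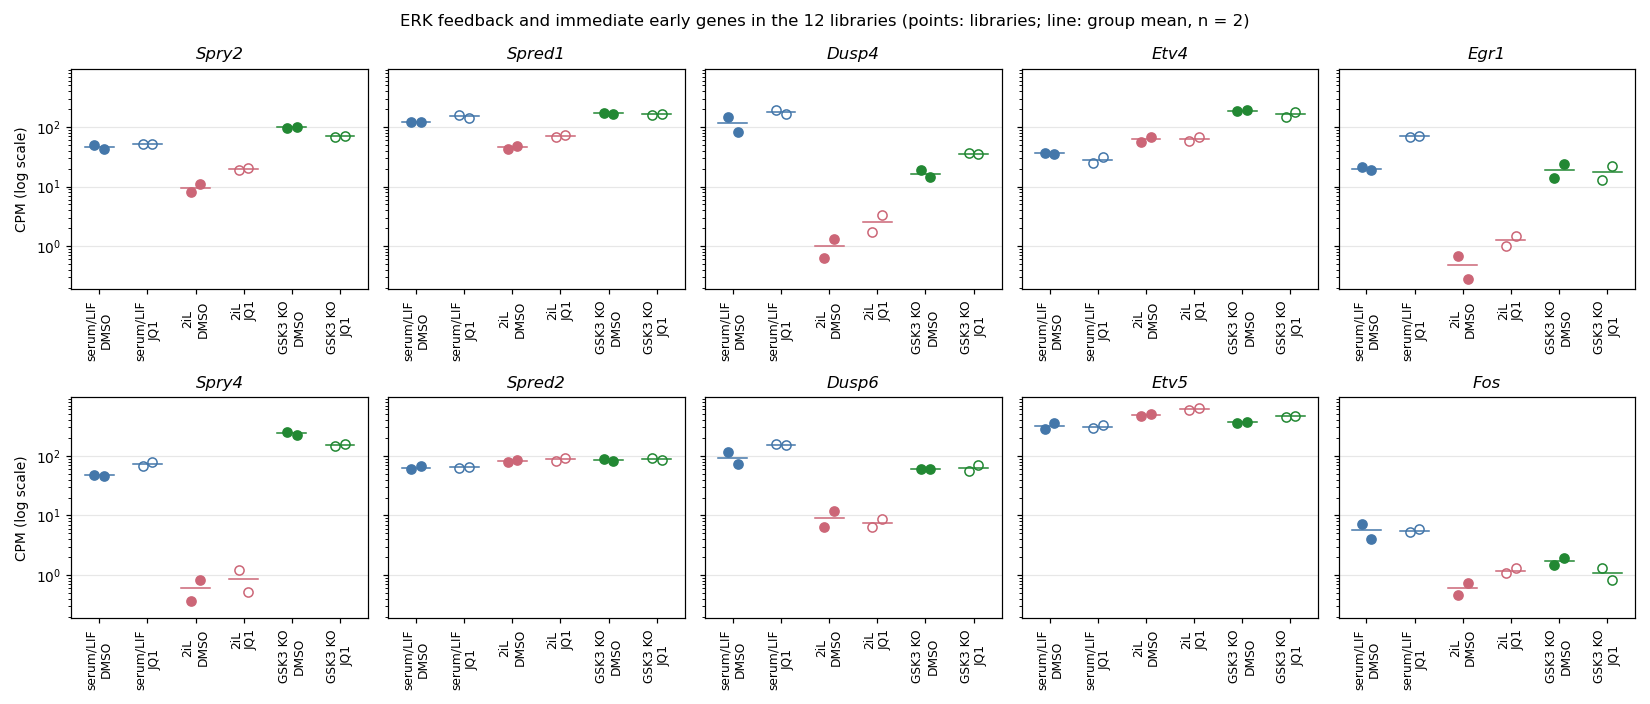
Level of each of the 10 genes in the 12 libraries, in CPM on a log scale, with filled points for DMSO, open points for JQ1 and a line at the mean of the 2 libraries of a group. Spry4, Dusp4, Egr1 and Fos sit at or below 3.36 CPM in the 2iL libraries, Etv4 and Spry4 are highest in the knockout, and Egr1 in serum/LIF stands at 67.5 and 71.2 CPM with JQ1.

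The first comparison asked how the pathway's output genes differ when MEK and GSK3 are inhibited in 2iL. In 2iL with DMSO 7 of the 10 genes were lower and 3 higher than in serum/LIF with DMSO, so all 10 passed, against 54.8% of all genes tested (26.5% lower and 28.3% higher). The falls included Spry4, Dusp4 and Egr1, from 40.8-fold to 115-fold, and the rises were those of Etv4, Etv5 and Spred2, each under 2-fold. A gene is said to pass, rise or fall where its Benjamini-Hochberg adjusted p, taken over all 16987 genes in edgeR's quasi-likelihood test, was under 0.05, and differences are on the log2 scale with their standard error (SE). The groups did not overlap for any of the 10 genes. How many of all genes tested separate in this way was not counted, here or below, so overlap is given only as a description. The 16987 genes tested had a median log2 difference of 0.04.

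Among the Sprouty and SPRED inhibitors, Spry4 stood at 48.1 and 45.6 CPM in serum/LIF and at 0.367 and 0.829 CPM in 2iL, where it rests on 8 and 18 counts. The 2iL libraries lay far below both serum/LIF libraries, a difference of -6.28 ± 0.26 on the log2 scale (SE; 77.7-fold lower, adjusted p = 2e-09), and 130-fold without 2iL DMSO replicate 2. Spry2 stood at 49.3 and 43.2 CPM against 8.21 and 10.9 CPM, a log2 difference of -2.28 ± 0.14 (adjusted p = 3.02e-08). Both Sprouty genes were thus low in 2iL, but Spry2 kept a level that was well measured. Spred1, at 122 and 121 CPM in serum/LIF and 41.9 and 48.8 CPM in 2iL, fell by 1.42 ± 0.11 (adjusted p = 2.11e-07). Spred2, its close relative, was instead higher in 2iL, at 77.4 and 86.2 CPM against 61.1 and 66.3 CPM (0.36 ± 0.11, adjusted p = 0.0125). That rise no longer passed when only the 4 libraries compared were fitted (0.30, adjusted p = 0.0968), without serum/LIF DMSO replicate 1 (0.31, 0.0900) or without 2iL DMSO replicate 2 (0.23, 0.157).

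Both ERK phosphatases fell. Dusp4, the nuclear phosphatase, stood at 145 and 83.8 CPM in serum/LIF and at 0.642 and 1.34 CPM in 2iL (14 and 29 counts), the largest fold among the 10 genes in this comparison at 115-fold (log2 -6.85 ± 0.37, adjusted p = 1.22e-08), and 182-fold without 2iL DMSO replicate 2. Dusp6, which acts on ERK in the cytoplasm, stood at 114 and 72.1 CPM against 6.52 and 11.7 CPM. It was 10.3-fold lower (log2 -3.36 ± 0.27, adjusted p = 3.3e-07), and unlike Dusp4 it was not near the limit of detection. For both phosphatases serum/LIF replicate 1 was the higher of its group, and both serum/LIF libraries lay above both 2iL libraries.

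The ETS factors Etv4 and Etv5 did not fall with the Sprouty genes, Spred1 and the phosphatases, and were higher in 2iL, as Spred2 was. Etv4 stood at 37.0 and 35.2 CPM in serum/LIF and 56.4 and 68.8 CPM in 2iL (0.79 ± 0.14, adjusted p = 0.00037). Etv5 stood at 287 and 351 CPM against 470 and 504 CPM (0.61 ± 0.11, adjusted p = 0.00058). For both genes each 2iL library was above each serum/LIF library.

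The immediate early genes fell. Egr1, a zinc-finger transcription factor, stood at 21.1 and 18.6 CPM in serum/LIF and 0.688 and 0.276 CPM in 2iL, on 15 and 6 counts (40.8-fold lower, log2 -5.35 ± 0.41, adjusted p = 2.39e-07). Without 2iL DMSO replicate 1 the fall was 73.0-fold. Fos, a subunit of the AP-1 factor, was low already in serum/LIF at 7.25 and 3.99 CPM and stood at 0.459 and 0.737 CPM in 2iL, on 10 and 16 counts (9.48-fold lower, log2 -3.24 ± 0.39, adjusted p = 1.39e-05). Neither gene's groups overlapped. The fibroblast markers fell in the same comparison, 11 of 11 tested, and their part in these results was not tested.

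With JQ1 in both media the same 10 of 10 genes passed with the same signs (53.3% of all genes tested passed, 25.4% higher and 27.9% lower). The log2 difference of 2iL from serum/LIF was -6.48 ± 0.25 for Spry4, -6.09 ± 0.33 for Dusp4, -5.77 ± 0.36 for Egr1, -4.35 ± 0.28 for Dusp6, -2.22 ± 0.36 for Fos, -1.39 ± 0.13 for Spry2 and -1.10 ± 0.11 for Spred1. It was 1.16 ± 0.14 for Etv4, 1.01 ± 0.12 for Etv5 and 0.45 ± 0.11 for Spred2, and the last no longer passed without 2iL JQ1 replicate 2 (0.28, adjusted p = 0.12). Without 2iL JQ1 replicate 1 the difference was -7.18 for Spry4, and without replicate 2 it was -6.76 for Dusp4. This comparison uses other libraries than the one with DMSO, and in both the 3 genes that stood higher in 2iL were Etv4, Etv5 and Spred2.

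The wider pathway in 2iL was described by 3 further lists. Together 55 of their 77 tested genes passed (71.4%), against 54.8% of all genes. Of 16 other feedback regulators tested, 9 were lower and 1 higher, a share of 62.5% near that of all genes, with a median log2 difference of -1.62. Those that fell included the phosphatases Dusp5 (-2.62, from 27.5 to 4.50 CPM) and Dusp2 (-2.88, from 2.55 to 0.345 CPM), and the gene that rose was Lrig1 (1.91, from 15.4 to 56.9 CPM), which restrains ErbB receptors. Of 31 other immediate early and ETS genes, 19 were lower and 7 higher, with a median of -2.03. The AP-1 subunit Fosl2 fell from 41.1 to 0.184 CPM (-7.77), and Egr3, at 0.740 CPM in serum/LIF, had no counts in either 2iL library. Among the 7 that rose were Ets2 (1.12) and the transcriptional repressor Cic (0.91), which ERK signalling inactivates. The list of 30 components runs from ligands through ERK to the kinases Rps6ka1 and Rps6ka3, and includes Nf1 and Rasa1, which restrain Ras. Of these 30, 9 were higher and 10 lower, a share of 63.3% also near that of all genes, with a median of 0.00. The ligand Fgf4 rose from 45.1 to 171 CPM (1.93 ± 0.19) and the scaffold Ksr1 from 6.28 to 29.4 CPM (2.21), while Fgf8 fell from 31.5 to 0.230 CPM and Fgf15 from 21.5 to 0.0919 CPM. The lists of other feedback regulators and of other immediate early and ETS genes thus had medians well under that of all genes. The list of components did not.

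In the GSK3 knockout, kept in serum/LIF without a MEK inhibitor, the 10 genes moved in another combination. With DMSO 5 were higher than in unmodified serum/LIF cells and 3 were lower, 8 of 10 against 40.0% of all genes tested (18.9% higher and 21.0% lower). Spry4 and Etv4 rose by about 5-fold, Spry2, Spred1 and Spred2 rose by smaller amounts, and Dusp4, Fos and Dusp6 fell. This comparison shares the serum/LIF DMSO libraries with that of 2iL, so the values are set side by side and not correlated.

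Spry4 stood at 247 and 228 CPM in the knockout against 48.1 and 45.6 CPM in unmodified cells, 5.06-fold higher (log2 2.34 ± 0.17, adjusted p = 4.77e-07). Spry2 stood at 97.8 and 99.0 CPM against 49.3 and 43.2 CPM (1.09 ± 0.12, adjusted p = 2.14e-05). The 2 Sprouty genes, which were lower in 2iL, were thus higher in the knockout, with no overlap between groups. Spred1 stood at 171 and 166 CPM against 122 and 121 CPM (0.47 ± 0.10, adjusted p = 0.00298). Spred2 stood at 87.6 and 81.8 CPM against 61.1 and 66.3 CPM (0.41 ± 0.11, adjusted p = 0.0089), and did not pass without knockout DMSO replicate 1 (0.37, adjusted p = 0.0751) or serum/LIF DMSO replicate 1 (0.36, 0.0762).

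Dusp4 moved against the Sprouty genes, at 18.6 and 14.5 CPM in the knockout against 145 and 83.8 CPM (log2 -2.79 ± 0.27, adjusted p = 5.47e-06). Dusp6 stood at 60.9 and 59.2 CPM against 114 and 72.1 CPM (-0.64 ± 0.24, adjusted p = 0.0462). The Dusp6 difference rested largely on 1 library: without serum/LIF DMSO replicate 1 it was -0.26 (adjusted p = 0.478), and it also failed without knockout DMSO replicate 1 (-0.65, 0.143) or replicate 2 (-0.61, 0.156).

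Etv4 stood at 184 and 191 CPM in the knockout against 37.0 and 35.2 CPM, 5.18-fold higher (log2 2.37 ± 0.14, adjusted p = 1.61e-07). Etv5, at 353 and 377 CPM against 287 and 351 CPM, did not pass (0.19 ± 0.11, adjusted p = 0.201, 95% interval -0.05 to 0.44). The gap between these relatives was thus wider here than in 2iL, where both rose by similar amounts, although that contrast between genes was not tested. Egr1 stood at 14.0 and 23.9 CPM against 21.1 and 18.6 CPM and the libraries overlapped (-0.07 ± 0.27, adjusted p = 0.853, 95% interval -0.65 to 0.51). Fos stood at 1.47 and 1.96 CPM, on 29 and 35 counts, against 7.25 and 3.99 CPM (-1.74 ± 0.35, adjusted p = 0.00147).

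**Figure D2:**
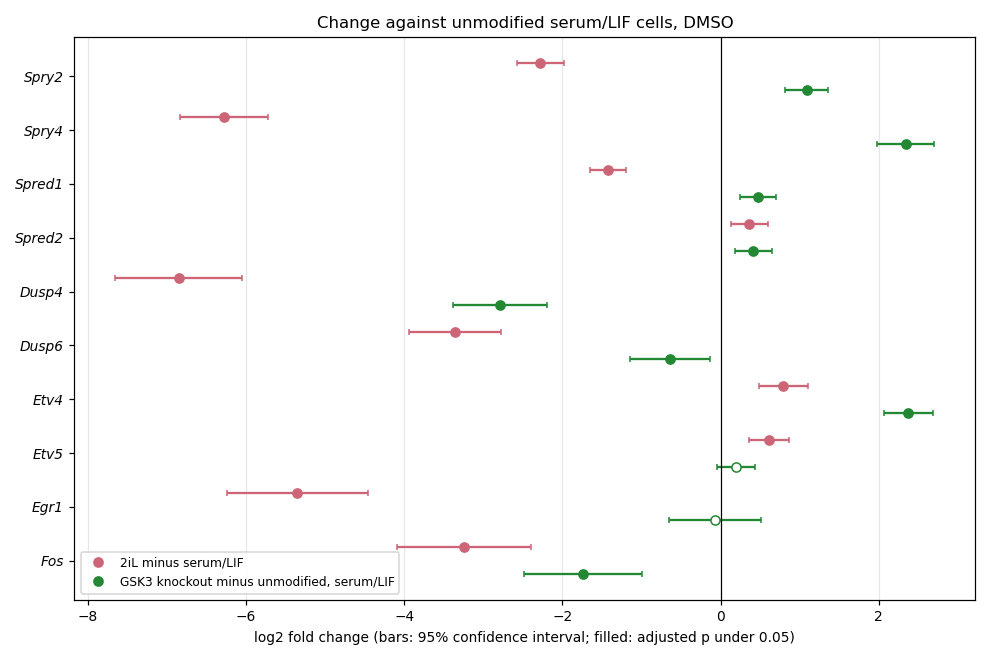
Log2 fold change of each of the 10 genes against unmodified serum/LIF cells with DMSO, for 2iL (red) and the GSK3 knockout (green), with 95% confidence intervals and filled points where the adjusted p was under 0.05. Spry2, Spry4 and Spred1 lie below 0 for 2iL and above 0 for the knockout, Dusp4, Dusp6 and Fos lie below 0 for both, and both comparisons share the serum/LIF libraries.

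Markers of other cells moved with the knockout. The summed level of 8 primitive endoderm markers was 489 and 350 CPM in the knockout with DMSO against 84.3 and 78.1 CPM in unmodified serum/LIF cells, 7 of the 8 passed as higher and 1 as lower, and all were above 0 in these libraries. Sox17 went from 0.449 to 8.83 CPM and Gata6 rose by 3.91 on the log2 scale to 18.3 CPM. Of 11 fibroblast markers tested 9 were lower and 1, Pdgfra, which also stands in the primitive endoderm list, was higher. The part of these cells in the values of the 10 genes was not tested.

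Of the 77 genes tested in the 3 lists, 52 passed in the knockout (67.5%), against 40.0% of all genes. Of the other feedback regulators, 10 of 16 were lower and 2 higher, with a median log2 difference of -0.99, against a median of 0.30 for the 10 genes and 0.01 for all genes. Dusp5 (-2.95, from 27.5 to 3.60 CPM) and Dusp2 (-2.12) fell, and the 2 that rose were Cbl (0.62), a ubiquitin ligase for receptor tyrosine kinases, and Lrig1 (0.56). Of the 31 other immediate early and ETS genes, 16 were lower and 5 higher, with a median of -1.30. Klf6 fell from 185 to 22.2 CPM (-3.06) and Egr3 from 0.740 to 0.0533 CPM (-3.69), while the ETS factors Erf (0.93) and Gabpa (0.75) rose. Of the 30 components, 9 were higher and 10 lower, with a median of -0.17. The receptor Fgfr4 rose from 1.03 to 5.64 CPM and Ksr1 from 6.28 to 14.2 CPM, and the ligands Fgf5 (from 14.3 to 1.23 CPM) and Fgf8 (from 31.5 to 0.290 CPM) fell. Most of the other feedback regulators and other immediate early and ETS genes that passed were thus lower in the knockout. Dusp4 and Fos were lower as well, whereas Spry2, Spry4 and Etv4 were higher.

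**Figure D3:**
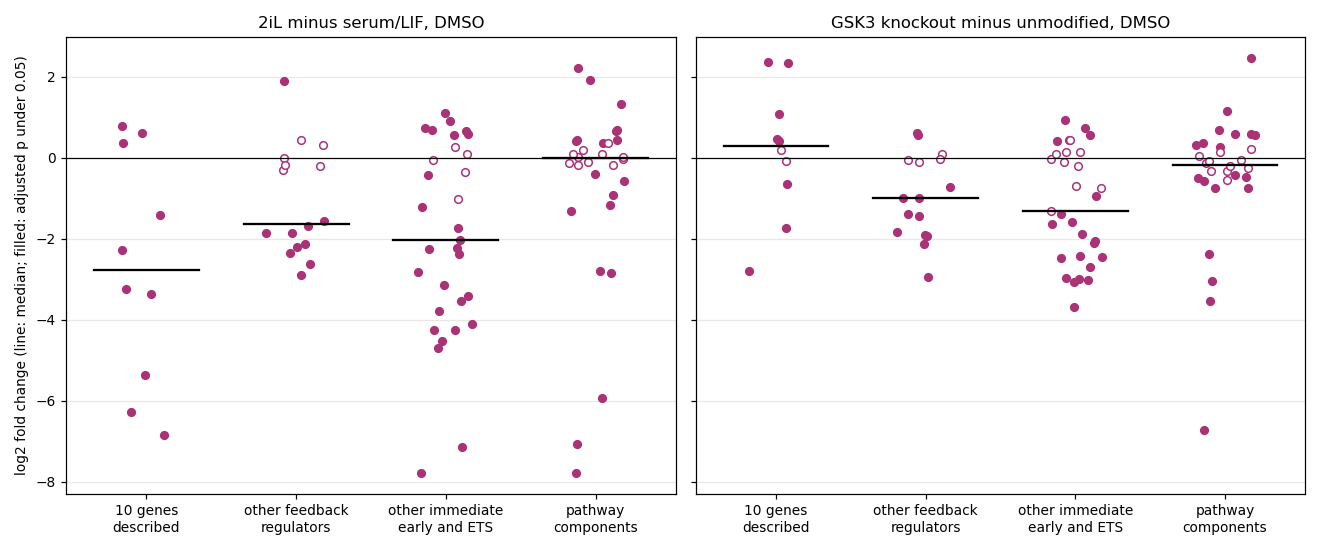
Log2 fold changes of the 10 genes and of the 3 other pathway lists in 2iL (left) and in the GSK3 knockout (right), each against unmodified serum/LIF cells with DMSO, with 1 point per gene, filled where the adjusted p was under 0.05, and a line at the median of each list. The median of the other immediate early and ETS genes lies at -2.03 in 2iL and -1.30 in the knockout, and that of the pathway components at 0.00 and -0.17. Egr3, with no counts in 2iL, is drawn at its fitted value, which depends on the prior count.

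Set directly against 2iL, the knockout with DMSO was higher in 8 of the 10 genes and lower in 1, against 43.3% of all genes tested (21.3% higher and 22.0% lower). Spry4 differed by 8.62 ± 0.26 on the log2 scale (adjusted p = 3.76e-10), a difference larger in size than that of 99.7% of all genes. Egr1 differed by 5.28 ± 0.42, Dusp4 by 4.06 ± 0.38, Spry2 by 3.37 ± 0.14, Dusp6 by 2.72 ± 0.26, Spred1 by 1.90 ± 0.11 and Etv4 by 1.58 ± 0.14. Without 2iL DMSO replicate 2 the difference was 9.34 for Spry4 and 4.70 for Dusp4, and without replicate 1 it was 6.09 for Egr1. These 7 genes covered feedback inhibitors, an ETS factor and an immediate early gene alike. Fos differed by 1.51 ± 0.43 (adjusted p = 0.0121), which did not pass without 2iL DMSO replicate 1 (1.23, 0.0859) or knockout DMSO replicate 2 (1.30, 0.0766). Etv5 was lower by -0.42 ± 0.11 (adjusted p = 0.0106), which did not pass without knockout DMSO replicate 1 (-0.37, 0.0874) or 2iL DMSO replicate 2 (-0.34, 0.0659). Spred2 differed by 0.05 with overlapping libraries. The 2 groups differ in the GSK3 alteration, in the MEK inhibitor and in all other parts of the medium, which cannot be told apart here.

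The response to JQ1 was first taken within unmodified serum/LIF cells, where 4 of the 10 genes rose and none fell, against 21.3% of all genes tested (8.54% higher and 12.8% lower). Egr1 rose 3.48-fold, and Spry4, Dusp6 and Spred1 rose by less than 2-fold. The median log2 change was 0.24 over the 10 genes and -0.01 over all genes. Egr1 stood at 21.1 and 18.6 CPM with DMSO and 67.5 and 71.2 CPM with JQ1, a change of 1.80 ± 0.27 (adjusted p = 0.000688). It stayed between 1.72 and 1.91 and passed in each fit that left out a library.

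The smaller rises were less firm. Spry4 went from 48.1 and 45.6 to 67.9 and 78.9 CPM (0.65 ± 0.16, adjusted p = 0.0138), and did not pass without serum/LIF DMSO replicate 2 (0.61, 0.0764) or JQ1 replicate 2 (0.55, 0.053). Dusp6 went from 114 and 72.1 to 160 and 150 CPM (0.73 ± 0.23, adjusted p = 0.0403). It ranged from 0.44 to 1.11 as single libraries were left out and lost its call without serum/LIF DMSO replicate 2 (adjusted p = 0.281), JQ1 replicate 1 (0.119) or JQ1 replicate 2 (0.0664), under RLE scaling (0.0506) and under a stricter filter (0.0519). Spred1 went from 122 and 121 to 161 and 143 CPM (0.32 ± 0.10, adjusted p = 0.0425) and lost its call under 7 of 10 alternatives. These were RLE scaling (0.30, adjusted p = 0.0685), the stricter filter (0.29, 0.0587), only the libraries compared (0.32, 0.171) and DESeq2 (0.30, 0.0552). The others were the fits without serum/LIF DMSO replicate 1 (0.34), DMSO replicate 2 (0.32) or JQ1 replicate 1 (0.24). In each of these 3 genes both JQ1 libraries stood above both DMSO libraries. The same held for Spry2 and Dusp4, which did not pass, so this separation does not set the 3 genes apart.

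The other 6 genes did not pass in serum/LIF. Dusp4 stood at 145 and 83.8 CPM with DMSO and 196 and 162 CPM with JQ1 (0.64 ± 0.25, adjusted p = 0.0812, 95% interval 0.11 to 1.17), and passed without serum/LIF DMSO replicate 1 (1.10, 0.0165) and without the low-count filter (0.67, 3.49e-05). Etv4 stood at 37.0 and 35.2 CPM against 25 and 31.3 CPM (-0.36 ± 0.14, adjusted p = 0.0897), and passed without JQ1 replicate 2 (-0.51, 0.0482). Spry2 (0.15, 95% interval -0.12 to 0.42), Etv5 (-0.05), Fos (-0.03) and Spred2 (0.01) had intervals that included 0. Other values moved with JQ1 in this medium: 10 of 11 fibroblast markers tested were lower, as were 4 of 8 ES cell markers (Nanog -1.60, Tdgf1 -1.11, Zfp42 -1.07 and Dppa5a -0.96), and mitochondrial genes took 6.45% and 7.51% of counts with JQ1 against 9.44% and 11.85% with DMSO. Mitochondrial shares were also lower with JQ1 in 2iL (4.67% and 4.82% against 6.75% and 6.41%) and in the knockout (7.20% and 8.43% against 10.66% and 11.16%). The part of these in the values of the 10 genes was not tested.

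In 2iL, with the MEK inhibitor present, 4 of the 10 genes rose with JQ1 and none fell, against 28.5% of all genes tested (11.2% higher and 17.3% lower). Spry2 rose from 8.21 and 10.9 to 19.1 and 20.2 CPM (1.04 ± 0.14, adjusted p = 0.000189) and Spred1 from 41.9 and 48.8 to 68.3 and 73.2 CPM (0.64 ± 0.11, adjusted p = 0.000913). These 2 inhibitors passed under every alternative run. Both remained with JQ1 below their levels in serum/LIF with DMSO. Etv5 rose from 470 and 504 to 596 and 648 CPM (0.35 ± 0.11, adjusted p = 0.0354), but not without 2iL DMSO replicate 1 (0.31, 0.155), JQ1 replicate 1 (0.43, 0.0636) or JQ1 replicate 2 (0.30, 0.181).

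Dusp4 was the fourth, at 0.642 and 1.34 CPM with DMSO and 1.71 and 3.36 CPM with JQ1 (1.39 ± 0.46, adjusted p = 0.0395). It rests on 14 to 78 counts a library and did not pass in a fit of only the 4 libraries compared (adjusted p = 0.0774), without 2iL DMSO replicate 1 (0.97, 0.25) or without JQ1 replicate 2 (0.79, 0.377). Without 2iL DMSO replicate 2 it was 2.02 (adjusted p = 0.0339). Egr1 stood at 0.688 and 0.276 CPM against 1.02 and 1.47 CPM (1.38 ± 0.57, adjusted p = 0.0858), and passed in DESeq2 (adjusted p = 0.0137) and without the low-count filter (0.00141). Fos stood at 0.459 and 0.737 CPM against 1.08 and 1.29 CPM (0.99 ± 0.44, adjusted p = 0.109). At 6 to 34 counts a library, smaller changes of these immediate early genes were not detectable. Spry4 (0.45), Dusp6 (-0.26), Etv4 (0.00) and Spred2 (0.09) had libraries that overlapped between DMSO and JQ1. Fibroblast markers summed to at most 16.8 CPM in these 4 libraries, and 5 of 11 tested were lower with JQ1.

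In the knockout, 2 of the 10 genes rose with JQ1 and 2 fell, against 34.1% of all genes tested (14.6% higher and 19.5% lower). Spry4 fell from 247 and 228 to 145 and 156 CPM (-0.66 ± 0.16, adjusted p = 0.0071) and Spry2 from 97.8 and 99.0 to 67.7 and 70.9 CPM (-0.51 ± 0.12, adjusted p = 0.00771). Both fell by under 2-fold and stayed above their levels in unmodified cells with JQ1. Neither passed without knockout JQ1 replicate 1 (-0.60, adjusted p = 0.0693, and -0.47, 0.069), nor Spry4 without knockout DMSO replicate 1 (-0.59, 0.0615). Dusp4 rose from 18.6 and 14.5 to 36.3 and 35 CPM (1.10 ± 0.27, adjusted p = 0.00719), but not without knockout DMSO replicate 2 (0.94, 0.0628). Etv5 rose from 353 and 377 to 455 and 468 CPM (0.34 ± 0.11, adjusted p = 0.0367), a call lost under the stricter filter (0.31, adjusted p = 0.0535) and whichever of the 4 libraries was left out (adjusted p from 0.0802 to 0.192).

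Egr1 in the knockout stood at 14.0 and 23.9 CPM with DMSO and 13.0 and 22.4 CPM with JQ1, with overlapping libraries (-0.11 ± 0.27, 95% interval -0.70 to 0.48). Dusp6 (0.08), Etv4 (-0.21), Fos (-0.64, 15 to 38 counts a library), Spred1 (-0.04) and Spred2 (0.07) did not pass either. Primitive endoderm markers summed to 312 and 248 CPM with JQ1 against 489 and 350 CPM with DMSO, and 1 of 8 passed as lower. Fibroblast markers summed to 240 and 168 CPM against 339 and 493 CPM, and 7 of 11 passed as lower, and the part of both in the falls of Spry2 and Spry4 was not tested.

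**Figure D4:**
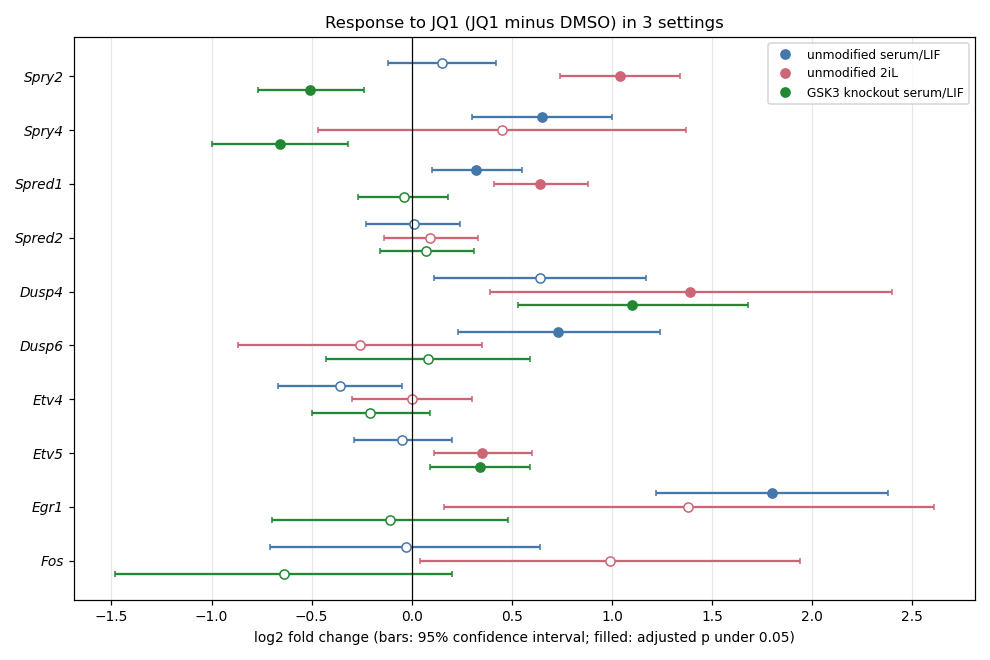
Log2 fold change of JQ1 against DMSO for each of the 10 genes in unmodified serum/LIF cells (blue), unmodified 2iL cells (red) and GSK3 knockout cells (green), with 95% confidence intervals and filled points where the adjusted p was under 0.05. Egr1 in serum/LIF lies at 1.80 while its interval in the knockout runs from -0.70 to 0.48, and Spry2 lies above 0 in 2iL and below 0 in the knockout.

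Whether the response to JQ1 itself differed between settings was tested by interaction. For 2iL against serum/LIF, 1 of the 10 genes passed, against 4.16% of all genes tested (1.35% higher and 2.80% lower): Spry2, whose response was larger in 2iL by 0.89 ± 0.19 (adjusted p = 0.0176). For the knockout against unmodified cells 2 of 10 passed, against 4.37% (1.25% higher and 3.12% lower), both lower in the knockout: Egr1 by -1.91 ± 0.38 (adjusted p = 0.0154) and Spry4 by -1.30 ± 0.23 (adjusted p = 0.00821). Spry4 thus rose with JQ1 in unmodified serum/LIF cells and fell in the knockout. Spry2 in the knockout differed from its response in unmodified cells by -0.66 ± 0.18 (adjusted p = 0.0533), and passed in DESeq2 (-0.63, adjusted p = 0.0203) and in a fit of only the libraries compared (adjusted p = 0.036). For the other genes the intervals of the difference varied in width. In 2iL they ran from -0.39 to 1.90 for Dusp4 and from -1.78 to -0.20 for Dusp6, but from -0.25 to 0.42 for Spred2. Dusp6 did not pass in 2iL (adjusted p = 0.169) or in the knockout (-0.65, 0.26). Without the low-count filter it passed in both (-1.02, adjusted p = 0.000138, and -0.63, 0.0246). Each of the 3 differences that passed was lost with some library left out, as given in the closing section.

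With JQ1 in both, the knockout was higher than unmodified serum/LIF cells in 5 of the 10 genes and lower in 4, against 44.0% of all genes tested (20.4% higher and 23.6% lower). Etv4 (2.53 ± 0.15), Spry4 (1.04 ± 0.16), Etv5 (0.58 ± 0.11), Spred2 (0.47) and Spry2 (0.43) were higher, and Spry2 did not pass without knockout JQ1 replicate 2 (0.40, adjusted p = 0.0836), serum/LIF JQ1 replicate 1 (0.44, 0.0508) or serum/LIF JQ1 replicate 2 (0.39, 0.0589). Fos (-2.34 ± 0.36), Dusp4 (-2.33 ± 0.26), Egr1 (-1.98 ± 0.27) and Dusp6 (-1.29 ± 0.24) were lower, and Spred1 did not pass (0.11). Of the 77 genes in the pathway lists 50 passed (64.9%). Of these lists, 12 of 16 other feedback regulators and 21 of 31 other immediate early and ETS genes were lower, with 0 and 2 higher, and 12 of 30 components were lower with 3 higher. The feedback regulators at the low end were Spred3 (-3.03, 24.6 against 2.99 CPM) and Dusp2 (-3.80), and the ETS factor Ets1 stood at 19.0 against 1.05 CPM (-4.17).

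With JQ1, 19 of the 77 genes in the pathway lists passed in serum/LIF (24.7%), 25 in 2iL (32.5%) and 25 in the knockout (32.5%). Pooled, these shares were near those of all genes (21.3%, 28.5% and 34.1%), but the lists differed. In the same order, components passed at 43.3%, 40% and 36.7%. Other immediate early and ETS genes passed at 16.1%, 32.3% and 32.3%, and other feedback regulators at 6.25%, 18.8% and 25%. In serum/LIF 10 of 30 components rose and 3 fell, with a median of 0.23, against 8.54% of all genes higher and 12.8% lower. The scaffold Ksr1 (0.73) and the receptor Fgfr2 (0.66) rose most, and the ligands Fgf8 (-2.46), Fgf5 (-2.08) and Fgf4 (-1.07) were the 3 that fell. Of the other immediate early and ETS genes 4 rose and 1 fell (Ier2 0.85, Klf10 0.77 and Fosl1 -1.19), and of the other feedback regulators only Lrig3 passed (-0.72). In 2iL 11 components rose and 1 fell (Fgfr2 1.10, Frs2 0.65, Fgfr4 -3.10), 9 immediate early and ETS genes rose and 1 fell (Erf 0.95, Ets1 1.23, Btg2 -1.30), and of the feedback regulators Dusp1 (0.86) and Il17rd (0.70) rose and Dusp9 fell (-2.12). Most components that passed in 2iL thus rose, whereas 11.2% of all genes were higher there and 17.3% lower. In the knockout 5 components rose and 6 fell (Map2k2 0.81, Map2k1 0.62, Fgf5 -2.64, Fgf15 -3.45), 3 immediate early and ETS genes rose and 7 fell (Ier3 0.65, Klf10 0.55, Fosl2 -1.47, Fosl1 -1.47), and 4 feedback regulators fell with none rising (Lrig3 -0.80, Spred3 -1.04). Map2k2, which encodes the kinase MEK2, rose in all 3 settings (0.46, 0.48 and 0.81), and was singled out after its values were seen. Medians over all genes tested were -0.01 in serum/LIF, -0.06 in 2iL and -0.06 in the knockout.

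Across the 12 libraries the 10 genes did not vary as 1 block. Over the 45 pairs, Pearson's r of log2 CPM ran from -0.865 to 0.982 with a median of 0.493, as a description over libraries that fall into 6 groups and share medium, depth and treatment. Spry2 and Spred1 were closest (0.982), then Spry2 and Spry4, Spry4 and Spred1, and Dusp4 and Dusp6 (each 0.963) and Dusp6 and Egr1 (0.953). Etv5 ran against the phosphatases, with -0.865 for Dusp6 and -0.807 for Dusp4, and Fos against Spred2 with -0.811. Thus Spry2, Spry4 and Spred1 shared a pattern that was low in 2iL and high in the knockout, and Dusp4, Dusp6 and Egr1 shared one that was highest in serum/LIF with JQ1.

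Outside the 10 genes, the patterns most like those of Dusp6, Spry4 and Egr1 were sought among 11912 genes by the same measure. Among the nearest to Dusp6 were Mest (0.991) and Tspan7 (0.981). Mest stood at 174 ± 21.5 CPM in serum/LIF with DMSO, 255 ± 15.3 CPM with JQ1, 22.5 ± 4.42 CPM in 2iL and 124 ± 4.0 CPM in the knockout with DMSO. Nearest to Spry4 were Eml1 (0.991), Rnf145 (0.987) and Tfdp1 (0.986). Rnf145 stood at 111 ± 10.1 CPM in serum/LIF, 50.3 ± 0.783 CPM in 2iL and 165 ± 0.088 CPM in the knockout, all with DMSO, a range far narrower than that of Spry4. Nearest to Egr1 were Trove2 (0.983), Bri3bp (0.980) and Icosl (0.975), of which Trove2 stood at 124 ± 2.85 CPM in serum/LIF with DMSO and 159 ± 1.13 CPM with JQ1.

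By position, Spry2 lies at chr14:105891947-105896819, Spry4 at chr18:38586247-38601415 and Etv4 at chr11:101769742-101785371, all on the minus strand of GRCm38, as is Etv5 at chr16:22381309-22439719. Dusp4 lies at chr8:34807297-34819894, Dusp6 at chr10:99263231-99267489, Egr1 at chr18:34859823-34864984, Fos at chr12:85473890-85477273, Spred1 at chr2:117121374-117182279 and Spred2 at chr11:19924375-20024026, all on the plus strand. The values are totals per gene over all exons of these loci and do not separate transcripts.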

How the data were processed

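Messenger RNA libraries of mouse ES cells were paired-end sequenced, and the submitters' processing notes list the mm10 genome and the tools STAR 2.5.2, bcl2fastq, DESeq2 1.18.1 and RSEM. Per the file headers, the deposited tables hold expected counts per gene and TPM for each of 12 libraries. The annotation release and strand setting are not given in the sources used here. RSEM shares reads between genes, and 6.11% to 8.71% of values per library were not whole. Of 52550 identifiers, 52403 (99.72%) matched GENCODE M21 without their version. The deposited TPM, which the authors scaled for depth and length, was used only to compare levels between genes.

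Rounded expected counts went into the 2-sided quasi-likelihood test of edgeR 4.0.16 (R 4.3.3). Genes were kept by filterByExpr (minimum count 10, minimum total 15), scaled by TMM, and fitted once over all 6 groups (6 residual degrees of freedom, common biological coefficient of variation 0.129). CPM are TMM-scaled except in marker sums. The standard error is the log2 fold change divided by the square root of F. Calls were at a Benjamini-Hochberg adjusted p under 0.05. The test was tried on simulated counts. The 10 genes, gene lists and naming rule (in each list the 2 highest and 2 lowest log2 fold changes among genes that passed, and the 3 most correlated genes at 5 CPM or more in a group for Dusp6, Spry4 and Egr1) were chosen with earlier results of these data known. Alternatives were DESeq2 1.42.0, RLE scaling, no filter, 1 CPM in 4 libraries, only the libraries compared, a replicate block and each library left out, which leaves a group of 1 whose spread is taken from the pooled fit. Depth limits the low genes: in 2iL a value of Spry4, Dusp4, Egr1 or Fos rests on 6 to 78 counts. Some genes that the naming rule selects are not reported here.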

Additional observations from a re-analysis of the deposited data

Results flagged for a closer look

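The response to JQ1 differed between settings for 3 of the 10 genes by a test of the difference itself. Spry2 responded more in 2iL than in serum/LIF, by 0.89 on the log2 scale (SE 0.19, adjusted p = 0.0176). It rose in both 2iL libraries with JQ1, while in serum/LIF its change was 0.15 with an interval that included 0. The call was lost in a fit of only the libraries compared (0.86, adjusted p = 0.0719) and without serum/LIF DMSO replicate 1 (0.79, 0.061), 2iL DMSO replicate 1 (0.70, 0.0578), 2iL JQ1 replicate 1 (0.93, 0.0501) or 2iL JQ1 replicate 2 (0.84, 0.0864). Spry4 responded less in the GSK3 knockout than in unmodified serum/LIF cells, by -1.30 (SE 0.23, adjusted p = 0.00821), having risen in unmodified cells and fallen in the knockout. That call was lost without knockout JQ1 replicate 1 (-1.25, adjusted p = 0.0535). Egr1 also responded less in the knockout, by -1.91 (SE 0.38, adjusted p = 0.0154), since it rose with JQ1 in unmodified cells and its knockout libraries overlapped. The call was lost without knockout DMSO replicate 2 (-1.48, adjusted p = 0.06) or knockout JQ1 replicate 1 (-1.56, 0.0703). In these libraries fibroblast markers summed to 902 and 879 CPM in unmodified serum/LIF cells with DMSO against 385 and 379 CPM with JQ1, and to 339 and 493 against 240 and 168 CPM in the knockout, and their part in the differences was not tested.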

How the results depend on the processing

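Of 61 calls over 10 genes and 10 comparisons, 42 were kept under every alternative run, 19 were lost under at least 1, and 0 reversed. The calls lost are named beside each result, with their values, their adjusted p or the range of these. For JQ1 in serum/LIF the 4 genes called became 2 under RLE scaling and 2 under the filter of 1 CPM in 4 libraries, and 1 to 4 with a library left out. For JQ1 in 2iL leaving out a library gave 2 to 4, and in the knockout 1 to 3. For the difference of the response in 2iL the 1 call became 2 with no filter, 0 with only the libraries compared and 0 to 1 with a library left out, and for that in the knockout the 2 became 4 with no filter and 0 to 3.

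Reversals all concerned genes that did not pass. Spred2 with JQ1 in serum/LIF was -0.019 (RLE), -0.021 (1 CPM filter) and -0.014 (DESeq2), Etv4 with JQ1 in 2iL -0.021 (1 CPM filter) and Spred1 with JQ1 in the knockout 0.0067 (no filter). With a library left out, values crossed 0 for JQ1 in serum/LIF in Etv5 (-0.18 to 0.10), Fos (-0.38 to 0.49) and Spred2 (-0.044 to 0.068), for JQ1 in 2iL in Spry4 (-0.19 to 1.15), Dusp6 (-0.61 to 0.23), Etv4 (-0.13 to 0.16) and Spred2 (-0.013 to 0.21), and for JQ1 in the knockout in Dusp6 (-0.089 to 0.25), Egr1 (-0.53 to 0.33) and Spred1 (-0.072 to 0.00032). They also did so for the knockout with DMSO in Egr1 (-0.50 to 0.27), with JQ1 in Spred1 (-0.0036 to 0.20), for the knockout against 2iL in Spred2 (-0.0048 to 0.15), and for the response in 2iL in Spry4 (-0.85 to 0.49), Egr1 (-0.92 to 0.37) and Spred2 (-0.033 to 0.19). The cause was not tested.

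Counts over all genes moved more than 1.5-fold for JQ1 in serum/LIF (3623, against 2245 with only the libraries compared and 1927 to 2822 with a library left out), in 2iL (4834, against 2530 to 4632) and in the knockout (5799, against 3186 to 3998), for the knockout with DMSO (6790, against 4512 to 5651), for the response difference in 2iL (706, against 1478 with no filter, 431 with only the libraries compared and 330 to 784) and for that in the knockout (742, against 2011 with no filter, 1297 in DESeq2 and 212 to 1779). RLE scaling moved the median of all genes by at most 0.068 in size.

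The labels do not say that a replicate number marks a shared culture or day. Deviations of same-numbered libraries from their group means correlated between -0.186 and 0.185 over 15 pairs of groups, 6 of them over 0.1. With the replicate number as a block, 98 of 100 gene values kept their side of the threshold, and Etv4 with JQ1 in serum/LIF (-0.38, adjusted p = 0.0344) and the Spry2 difference in the knockout (-0.66, 0.0439) passed in addition, so that 5 and 3 genes were called.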

Other observations

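The average transcript length that the deposited tables give for Fos, weighted over its transcripts, was 2108 bases in 8 libraries. It was 1511 bases in knockout DMSO replicate 1, 1650 and 1489 bases in the knockout with JQ1, and 2099 bases in 2iL JQ1 replicate 1, on 29, 38, 15 and 19 counts.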
